A study of Selaginella kraussiana with 4 samples.

Results

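The 300 most abundant transcribed loci of Selaginella kraussiana, a creeping lycophyte, were followed through 4 RNA libraries. Their members are the 300 of 23000 merged loci of at least 400 bp that had the highest FPKM on average over the libraries. FPKM counts sequenced fragments, scaled for the length of the transcript and for the number of fragments in the library. The 23000 are themselves part of 31210 merged loci of any length, each made by joining deposited loci with 1 bp or more in common on the same contig. A library each was sequenced from the leaf, seedling, rhizophore and stem of plants grown at 26°C with 16 h of light and 8 h of dark. The paper calls the leaf the microphyll and lists a shoot tip where the labels have a seedling. It also lists a rhizophore tip where the labels have a rhizophore. The labels' names are used here. No genotype, age or treatment sets the libraries apart in the labels. Since each tissue was sequenced once, the spread between replicates is unknown and no test was run. The members were chosen by these same FPKM values, so their levels, shares and ranks are a description. The interval printed after an FPKM is the deposited one, taken to be a 95% confidence interval, the usual setting of Cufflinks. It covers error within a library and not variation between plants.

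A microphyll is the small, single-veined leaf of a lycophyte, and the rhizophore is a leafless axis that grows from a branch point and bears the roots. In land plants a small set of genes supplies a large part of the messenger RNA of an organ. In green organs these include the genes for light harvesting and carbon fixation, while genes for ribosomes, translation and the cytoskeleton are abundant in most tissues. The tables name no gene, so the members are given by contig and position on the authors' draft assembly, counted from 1, and none was assigned to any of these classes. No sequence of the contigs was used here.

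The members were of 2 kinds. In 220 of them, every deposited locus was at least 400 bp long in every library. The other 80 also held a deposited locus under 400 bp, and in 57 of these more than 50% of the FPKM summed over the libraries came from such short loci. The deposited locus with the highest FPKM of a member had a median length of 822.5 bp in the first kind and 218.5 bp in the second, where the shortest was 92 bp. Among all merged loci of at least 400 bp, 20135 of 23000 were of the first kind. The interval was wider than 20% of the FPKM to either side in 1 to 3 of the 220 members, depending on the library, and in 14 to 24 of the 80. The first kind is called long members and the second mixed members below. The split was made after the values had been seen, and the main counts are given with and without the mixed members.

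Summed over merged loci of at least 400 bp, the members held 35.7% of the FPKM in the seedling, 34.4% in the stem, 32.2% in the leaf and 31.2% in the rhizophore. The next 300 loci held between 9.23% in the seedling and 9.97% in the stem. The 10 highest members alone held 11.5% in the seedling, 9.73% in the stem, 6.91% in the leaf and 6.32% in the rhizophore, and the last 100 held between 4.31% in the seedling and 5.37% in the stem. After 100 members the seedling was at 24.8% and the rhizophore at 17.6%, a wider gap than after all 300. Leaf and stem were at 21.8% and 22.2% there, so their gap after 300 arose further down the list. Within the 10 highest, contig 050869 alone held 5.96% of the seedling and contig 067981 5.33% of the stem. Both are mixed members. The 220 long members held 21.3% in the leaf, 21.3% in the seedling, 20.04% in the rhizophore and 19.7% in the stem, a narrower span than that of all 300. The mixed members held the remaining 10.9% in the leaf, 14.4% in the seedling, 11.2% in the rhizophore and 14.7% in the stem. When the 300 loci were chosen by the other 3 libraries, they held 26.9% of the leaf, 26.1% of the seedling, 25.6% of the rhizophore and 29.8% of the stem. Against merged loci of any length the shares of the members fell to 8.21% in the leaf, 5.38% in the seedling, 3.83% in the rhizophore and 10.5% in the stem, because loci under 400 bp carried most of the summed FPKM.

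**Figure D1:**
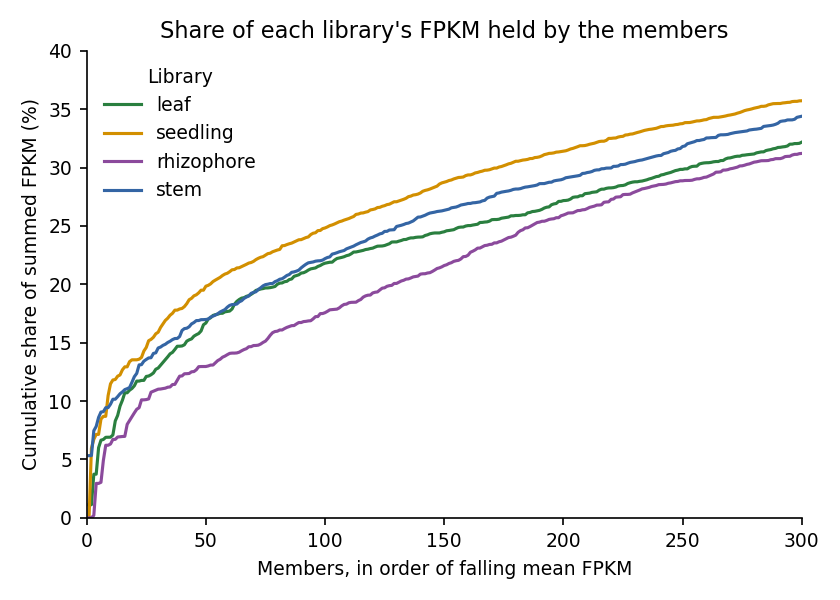
Cumulative share of the summed FPKM of merged loci of at least 400 bp (vertical axis, percent) against the number of members taken in order of falling mean FPKM (horizontal axis), 1 line per library. At 300 members the seedling stands highest at 35.7% and the rhizophore lowest at 31.2%.

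The median member had an FPKM of 531 in the leaf, 648 in the seedling, 655 in the rhizophore and 611 in the stem, while the median over all loci of at least 400 bp lay between 7.50 in the leaf and 9.39 in the rhizophore. The middle of the list was therefore at a like level in the 4 tissues. Its lower end was not: 41 members had an FPKM under 100 in the leaf, 29 in the seedling, 43 in the rhizophore and 27 in the stem. Of the long members these were 15, 5, 20 and 8. Of the 300 members, 294 were listed in all 4 libraries and 6 in 3. Of the 300, 110 had their highest FPKM in the rhizophore, 73 in the leaf, 73 in the stem and 44 in the seedling. As shares these are 36.7%, 24.3%, 24.3% and 14.7%, beside 28.7%, 30.4%, 19.2% and 21.6% over all loci of at least 400 bp. Of the 220 long members the counts were 84, 59, 48 and 29 in the same order. The lowest FPKM of a member was most often in the leaf (110) or the rhizophore (93), and less often in the seedling (58) or the stem (39). As shares these are 36.7%, 31%, 19.3% and 13%, beside 38.6%, 20.5%, 20.4% and 20.5% over all loci. Of the long members the counts were 87, 75, 33 and 25. A locus unlisted in several libraries was counted for the earliest of them in the order leaf, seedling, rhizophore, stem. Of all loci 74.1% were listed in all 4 libraries, beside 98% of the members. Such ties lean the background of the lowest library to the leaf, so the members are not read against it. The most frequent pair of ends was highest in the rhizophore and lowest in the leaf (69 members), followed by highest in the leaf and lowest in the rhizophore (45). Among the long members alone these counts were 58 and 42 of 220.

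**Figure D2:**
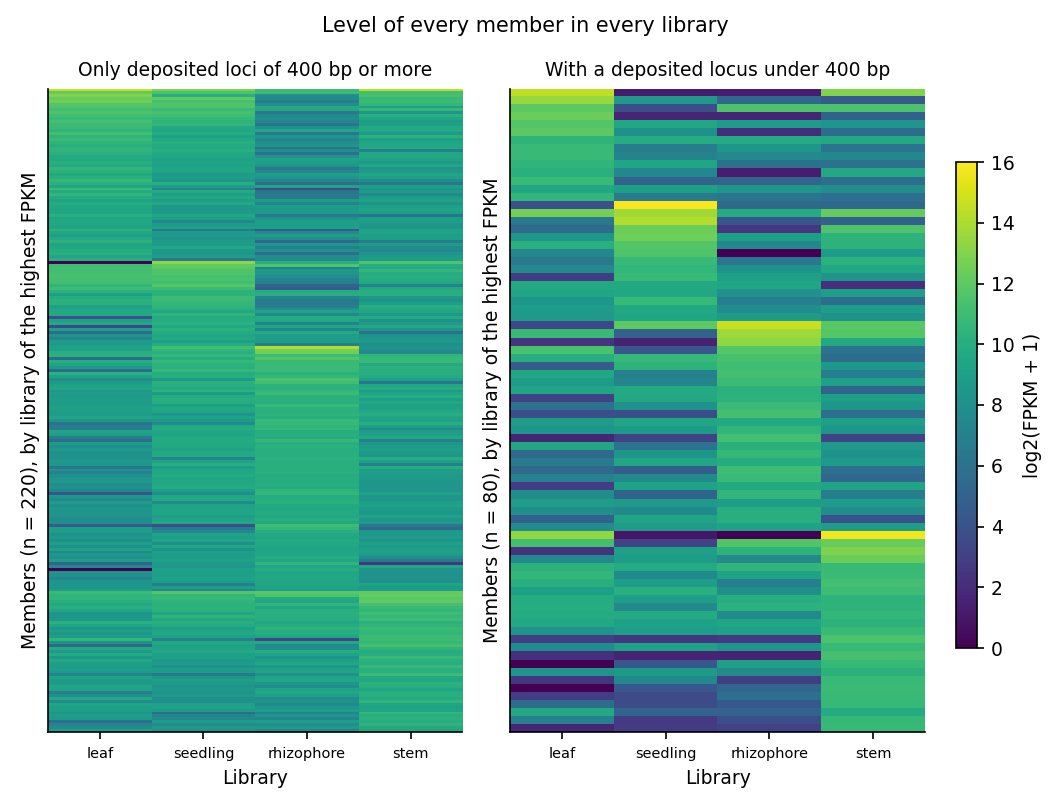
Level of every member, as log2(FPKM + 1) by colour, in the 4 libraries (columns), with the 220 long members at left and the 80 mixed members at right, ordered by the library of the highest FPKM. Dark cells, which mark low or unlisted loci, are common among the mixed members and few among the long ones.

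Rank 1 was given to the highest FPKM of a library among loci of at least 400 bp. Of the 300 members, 212 were within the top 300 of the seedling, 194 of the stem, 185 of the rhizophore and 179 of the leaf. Of the long members these were 172, 148, 142 and 140. Only 52 were within the top 300 of all 4 libraries, 107 of 3, 100 of 2 and 41 of 1. Of the 52, 46 were long members. The median rank was 206.5 in the leaf, 170.5 in the seedling, 174.5 in the rhizophore and 190.5 in the stem. The rank shift of a member, its highest rank number minus its lowest, had a median of 625.5 and ranged from 15 to 20019. It was at most 100 in 21 members and above 10000 in 29. The median shift was 471.5 for the long members and 4286 for the mixed members, and of the 29 shifts above 10000, 25 were in mixed members.

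The member with the highest FPKM among the long ones was on contig 063554 from 2054 to 2573. Its FPKM was 25767 (24700 to 26835) in the leaf, 22049 (21134 to 22964) in the stem, 7692 (7370 to 8014) in the seedling and 2002 (1913 to 2091) in the rhizophore. It was rank 1 in the leaf, 2 in the stem, 5 in the seedling and 24 in the rhizophore, and no 2 of its intervals overlapped. By itself it made up 2.61% of the FPKM of the leaf and 0.205% of that of the rhizophore. The locus on contig 070269 from 1 to 413 had the opposite leaning. Its FPKM was 18282 (18198 to 18365) in the rhizophore, 2328 in the seedling, 595 in the leaf and 311 in the stem. It stood at rank 2 in the rhizophore and at rank 497 in the stem. The merged locus on contig 103377 from 15 to 9296 led the long members of the seedling, at 10096 (9777 to 10415). It was at 3072 in the stem and 1033 in the rhizophore, and no locus was listed at this position in the leaf. Of the seedling value, 9881 came from a deposited locus of 3040 bp, and of the stem value 2567 from one of 2860 bp. The rhizophore had 3 deposited loci in this span and the seedling and stem 2 each. Whether they belong to 1 transcript was not tested.

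Several of the highest members kept a high rank throughout. The locus on contig 041492 from 25 to 953 was at 4658 in the leaf, 2866 in the seedling, 1990 in the rhizophore and 2290 in the stem, with ranks from 10 to 25. This span of 15 places was the smallest of any member. Contig 052917 from 1 to 430 was between 1878 in the leaf and 4376 in the stem, with ranks from 7 to 32. That on contig 045268 from 4881 to 5524 rose from 1437 in the leaf and 1556 in the seedling to 3138 in the rhizophore and 4675 in the stem. Contig 084194 from 480 to 1222 was at 2189 in the leaf, 4479 in the seedling, 3198 in the rhizophore and 1011 in the stem. These 4 loci were within the top 100 of every library.

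**Figure D3:**
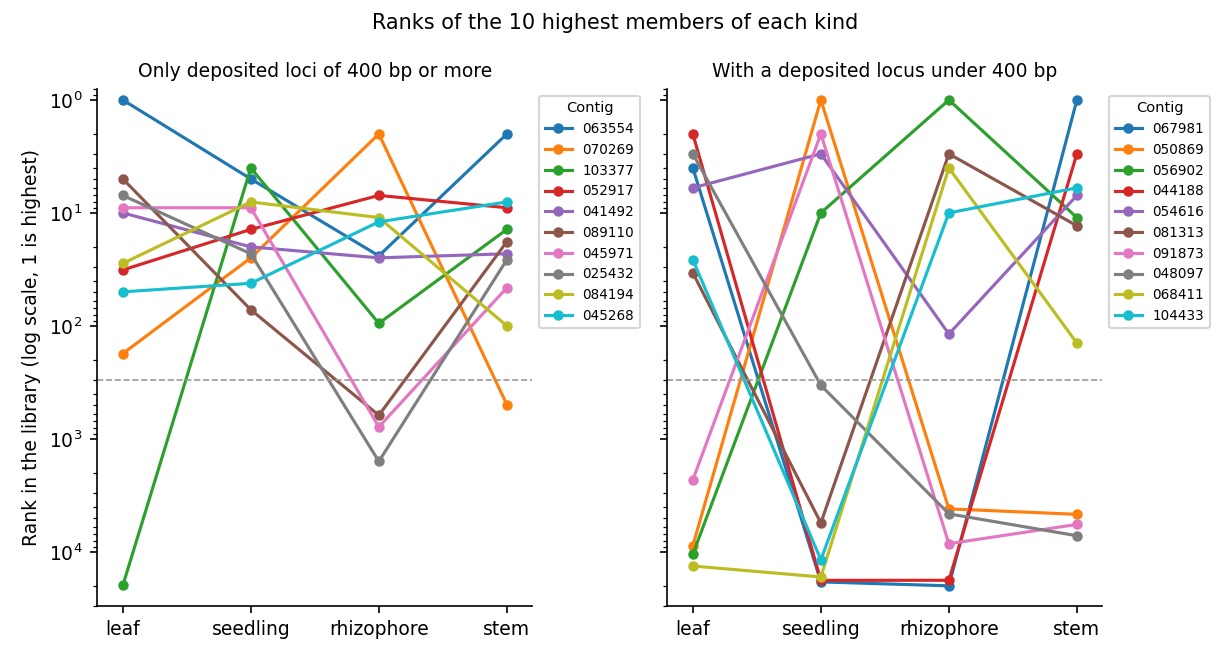
Rank in each library (vertical axis, log scale, rank 1 at the top) of the 10 highest long members (left) and the 10 highest mixed members (right), 1 line per locus named by its contig, with the dashed line at rank 300. Among the long members, contig 041492 stays between ranks 10 and 25 and contig 025432 drops to rank 1585 in the rhizophore, while contig 067981 among the mixed members runs from rank 1 to rank 20020.

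The level of a member seldom stayed the same in all 4 libraries. The highest FPKM was less than 2 times the lowest in 29 members (9.67%), of which 26 were long members, beside 20.8% of all loci of at least 400 bp. The steadiest was on contig 102731 from 352 to 1252, at 1167 (1116 to 1218) in the leaf, 950.2 (917 to 984) in the seedling, 1176 (1124 to 1228) in the rhizophore and 998 (963 to 1032) in the stem. Here the intervals of leaf and rhizophore overlapped, as did those of seedling and stem. Contig 079763 from 1 to 2525, a mixed member, was between 400.1 in the seedling and 507 in the rhizophore, and contig 067043 from 6 to 1046 between 389 in the stem and 494 in the seedling. At the other end, 193 of the 300 members (64.3%) differed by at least 2 on the log2(FPKM + 1) scale, which is 4-fold, between their highest and lowest library. The background, over the 21078 loci of at least 400 bp with an FPKM of at least 1 in a library, was 31.1%. Among the long members it was 124 of 220, beside a background of 27.8% over loci of that kind. The choice by the mean used the same values, so nothing is read from these shares.

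A locus was called high in a library if its log2(FPKM + 1) was at least 2 above that of each other library, and low if it was at least 2 below each other. Low in the rhizophore was the most frequent call at this threshold, though at a threshold of 3 the leaf had 16 low calls and the rhizophore 10. It was met by 33 members, beside a background of 1.16%, and by 25 of the 220 long members, beside 0.977%. The low calls for the other libraries were 23 in the leaf (background 2.4%), 7 in the stem (0.465%) and 5 in the seedling (0.508%). Of the long members they were 12 (background 2.27%), 4 (0.362%) and 0 (0.351%). High calls were 16 in the stem (background 1.38%), 15 in the rhizophore (1.87%), 10 in the leaf (1.54%) and 5 in the seedling (0.882%). Of the long members they were 5 (background 1.08%), 5 (1.65%), 2 (1.24%) and 0 (0.686%). Of the 46 members with a high call, 34 were thus mixed members, and without these the seedling had no high or low call. A locus with a high mean and a high level in 1 library only enters the list by that library, so the counts are given beside the background and are not read against it.

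The 25 long members low in the rhizophore differed in which tissue was highest. Their median FPKM was 1972 in the leaf, 1568 in the seedling, 809 in the stem and 87.9 in the rhizophore. The highest library was the leaf in 15, the seedling in 9 and the stem in 1, and the stem was the next lowest after the rhizophore in 18. All 25 were within the top 300 of the leaf and none within that of the rhizophore. Together they held 5.98% of the FPKM of the leaf, 4.51% of the seedling, 2.29% of the stem and 0.290% of the rhizophore. The highest of them was on contig 089110 from 4 to 4128, at 7872 (7544 to 8200) in the leaf, 2545 in the stem, 1081 in the seedling and 229 (211 to 246) in the rhizophore. Contig 025432 from 118 to 2548 was at 6271 in the leaf, 2563 in the seedling, 2033 in the stem and 111 in the rhizophore. On contig 045971, from 269 to 1320, the FPKM was 4958 in the leaf, 4422 in the seedling, 1662 in the stem and 189.8 in the rhizophore. In each of these 3 loci the rhizophore lay far below the other libraries, whose intervals its own did not touch. The lowest against the lowest other tissue was on contig 005108 from 457 to 2239. It was at 1972 (1890 to 2054) in the leaf, 1979 (1897 to 2061) in the seedling, 856 in the stem and 24.1 (22.4 to 25.8) in the rhizophore, where its log2 value was 5.09 below that of the stem (-5.09). Leaf and seedling did not differ beyond their intervals. A locus that also had a steep step in the stem was on contig 100400 from 2 to 5465. It was at 3446 in the seedling, 1420 in the leaf, 137 in the stem and 33.1 in the rhizophore. Its deposited loci were not alike in length. Of the leaf value, 1416 came from a locus of 1010 bp, and of the seedling value, 3339 from one of 1018 bp. The stem had a locus of 5382 bp only. Whether the step followed the length was not tested.

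For the 12 long members low in the leaf the median FPKM was 43.9 in the leaf, 864 in the seedling, 1009 in the rhizophore and 926 in the stem. Single loci spread more widely over these 3 libraries: contig 103377 was at 10096, 1033 and 3072. The highest library was the rhizophore in 7, the seedling in 3 and the stem in 2. Contig 048648 from 1 to 646 was at 10.9 (9.03 to 12.7) in the leaf, 851 in the seedling, 777 in the rhizophore and 789 in the stem, a log2 value of -6.04 in the leaf. That on contig 084852 from 98 to 1945 was at 15.6 in the leaf and at 930.5, 901 and 913 in the seedling, rhizophore and stem. In the second of these loci the intervals of the 3 other libraries overlapped. On 2 of the 12, contigs 103377 and 047042, no locus was listed in the leaf, and no fold is given for these.

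**Figure D4:**
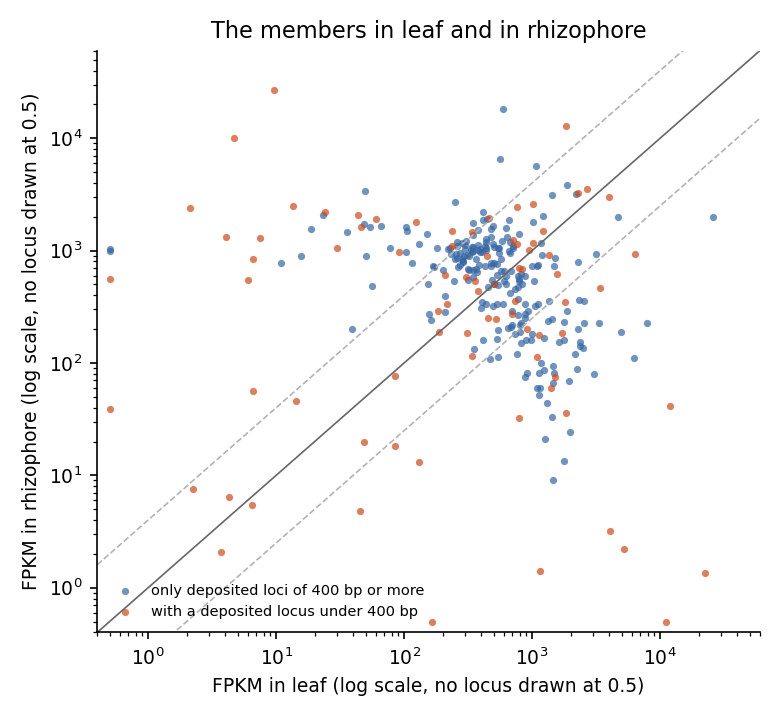
FPKM of the 300 members in the leaf (horizontal axis, log scale) and in the rhizophore (vertical axis, log scale), with unlisted loci drawn at 0.5, the solid line at equal values and dashed lines at a 4-fold difference. Of the members, 70 lie at least 4-fold higher in the leaf and 62 at least 4-fold higher in the rhizophore on the log2(FPKM + 1) scale, and the points at the outer edges are mainly mixed members.

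High calls in long members were few. The 5 of the rhizophore held 3.61% of its FPKM, beside 0.537% of the seedling, 0.253% of the leaf and 0.131% of the stem. Contigs 070269, 105729 and 073271 were the 3 highest of them. The locus on contig 105729 from 1 to 629 was at 6572 in the rhizophore, 1509 in the seedling, 558 in the leaf and 230.1 in the stem. Contig 073271 from 1 to 459 was at 5648, 1142, 1068 and 183 in the same order, and was also called low in the stem. All 3 kept the order rhizophore, seedling, leaf, stem. The largest log2 preference for the rhizophore, 4.62, belonged to contig 099775 from 5439 to 6293. It was at 2081 (2064 to 2099) in the rhizophore, 83.5 in the stem, 23.3 in the leaf and 13.4 in the seedling.

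In the leaf, the 2 high calls were contig 046896 from 499 to 1231 and contig 062272 from 378 to 8736. The first was at 1783 (1763 to 1804) in the leaf, 336 in the stem, 157 in the seedling and 13.3 in the rhizophore. The second was at 1624 in the leaf and between 154 in the rhizophore and 354 in the seedling elsewhere. Of its leaf value, 1415 came from a deposited locus of 702 bp. If an interval spans 2 Poisson standard deviations to either side, its width implies a number of fragments, here 4728 in the leaf, 6178 in the seedling and 4928 in the stem. Both thus had their lowest value in the rhizophore. In the stem, the locus on contig 042939 from 1 to 15997 was at 1992 (1906 to 2079), beside 275 in the rhizophore, 156 in the leaf and 88.6 in the seedling. The deposited locus was 2159 bp long in the stem and at least 5191 bp elsewhere. The implied fragments were 2129 in the stem, for 1 deposited locus. Elsewhere they were 2234 to 4300, each summed over 2 deposited loci, so no order is read from them. Contig 058158 from 61 to 2943 was at 1329 in the stem and between 162 and 239.7 in the other libraries. These stem loci ranked 29 and 66 in the stem and beyond 400 in each other library. Low in the stem were contig 101789 from 2511 to 3696, at 4.86 in the stem and 1449 in the rhizophore, and contig 046155 from 1 to 3679, at 68.2 in the stem and 2183 in the rhizophore. On contig 046155 the deposited locus of the stem was 3176 bp long, with 1777 implied fragments. Of the rhizophore value, 2153 came from a locus of 555 bp with 2112 implied fragments. For the seedling the long member nearest to a high call was contig 103377, with a log2 preference of 1.72 over the stem and no locus listed in the leaf. Among long members listed in all 4 libraries the nearest were contig 100400 and contig 099279 from 2 to 9660, with log2 preferences of 1.28 and 1.08. The nearest to a low call was contig 047234 from 2 to 7870, at 169 in the seedling and 515 to 795 elsewhere, a log2 value of -1.60. It was followed by contig 047561 from 1 to 987, at 169 in the seedling and 485 to 548 elsewhere. No long member was therefore called high or low in the seedling at the threshold of 2.

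Of the 10 members with the highest mean, several were mixed members whose FPKM was high where the deposited locus was short. The member with the highest mean of all was on contig 067981 from 1606 to 2340. It was at 55085 (23161 to 87008) in the stem and 11044 (5983 to 16104) in the leaf, at 0.974 in the seedling, and not listed in the rhizophore. In the stem the deposited locus was 182 bp long and in the seedling 735 bp. The implied fragments were 11.9 in the stem and 20 in the seedling. The library with the far higher FPKM thus rested on no more fragments than the other. This number is only a rough guide: on contig 063554 it was 2330, 2282, 2015 and 2322 in the leaf, seedling, rhizophore and stem, although the FPKM ran from 25767 to 2002. Contig 044188 from 1 to 404 was alike. It was at 22324 (7910 to 36738) in the leaf on 92 bp and 9.59 fragments, at 7979 in the stem on 95 bp and 11.0 fragments, and at 1.36 in the rhizophore on 404 bp and 14 fragments.

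In other mixed members the FPKM differed far more than the implied fragments. Contig 104433 from 371 to 799, low in the seedling, was at 2268 in the leaf, 3257 in the rhizophore, 4957 in the stem and 8.64 in the seedling. The fragment numbers were 144, 128, 123 and 113 in the same order, and the deposited locus was 426 bp in the seedling and 110 to 113 bp in the others. On contig 050869 from 9 to 1194, the highest of the seedling at 59957 (54733 to 65181), a deposited locus of 100 bp carried nearly all of the value. The other libraries were between 14.4 and 46.2 there, and the rhizophore, at 46.2, had 1137 implied fragments beside 547 in the seedling. Contig 056902 from 315 to 3424 was the highest of the rhizophore, at 26776 (17504 to 36048), of which 22108 came from a deposited locus of 94 bp with 22.8 implied fragments. Of the 34 mixed members with a high call, 21 had fewer implied fragments in the high library than in another library. Of the 12 long members with a high call, 2 did. The numbers are sums over the deposited loci of a member and only a rough guide. The high library rested on a median of 49627 implied fragments in those 12 and 789 in the 34.

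The rest of the mixed members at the ends of the list also held a short deposited locus. High in 1 library were contig 091873 from 1 to 586 (17908 in the seedling, at most 85.2 elsewhere), contig 044211 from 61 to 730 (5258 in the leaf, at most 30.4 elsewhere) and contig 046607 from 7861 to 10232 (1828 in the leaf, at most 52.6 elsewhere). So were contig 086760 from 734 to 1181 (2384 in the rhizophore, at most 8.73 elsewhere) and contig 097102 from 2178 to 2840 (2499 in the rhizophore, at most 52.1 elsewhere). In the stem they were contig 104595 from 2918 to 4083 (2466, at most 3.68 elsewhere) and contig 055122 from 57 to 776 (2854, at most 6.52 elsewhere). Low calls of this kind were contig 064735 from 1 to 644 in the leaf (4.04, at least 538 elsewhere), contig 101140 from 1 to 618 in the seedling (13.4, at least 2882 elsewhere), and contigs 093968 from 79 to 483 and 087513 from 1 to 5747 in the stem (3.65 and 33.4). Not every mixed member was of this sort. Contig 055299 from 676 to 1301, of whose FPKM 0.0654% came from short loci, was at 1143 in the leaf, 823 in the stem, 179 in the seedling and 1.40 (0.654 to 2.15) in the rhizophore. There the implied fragments fell with the FPKM, from 25977 in the leaf to 14 in the rhizophore. Contig 086870 from 1 to 418 was at 3156 in the seedling, 435 in the stem and 166 in the leaf, and was not listed in the rhizophore. Short loci again carried most of the FPKM on contigs 054616 (96.3%) and 081313 (99.8%), both among the 10 highest. On contig 054616 from 22 to 432 the FPKM was 13202 in the seedling, 6372 in the leaf, 4740 in the stem and 925 in the rhizophore. In the rhizophore alone the locus was listed at more than 122 bp. Contig 081313 from 2 to 444 was at 12755 in the rhizophore, 3549 in the stem, 1841 in the leaf and 32.5 in the seedling, where alone it was longer than 141 bp.

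Between pairs of tissues the top of the list was least shared by leaf and rhizophore. Of the 300 highest loci of each library, 98 (32.7%) were common to these 2, beside 165 (55.0%) for seedling and rhizophore, the largest overlap. The other pairs shared 144 (leaf and seedling), 141 (seedling and stem), 134 (leaf and stem) and 124 (rhizophore and stem). The median member moved by 374 ranks between leaf and rhizophore and by 139.5 between seedling and rhizophore. A difference of at least 4-fold was met by 70 members higher in the leaf than in the rhizophore (background 8.17%) and by 62 higher in the rhizophore (10.7%). Of these, 49 and 39 were long members (backgrounds 7.32% and 9.91%). For seedling and rhizophore the counts were 65 higher in the seedling (background 4.41%) and 34 higher in the rhizophore (4.53%), with 47 and 14 long members (3.79% and 3.72%). For stem and rhizophore they were 65 higher in the stem (5.04%) and 33 higher in the rhizophore (6%), with 39 and 14 long members (4.07% and 5.3%). So the 3 other tissues each had more members at least 4-fold above the rhizophore than at least 4-fold below it, also by the long members alone. For differences of any size this did not hold in leaf and seedling. Over the 300 members the median log2 difference was -0.49 for leaf minus rhizophore and -0.19 for seedling minus rhizophore. It was -0.20 for rhizophore minus stem. Between leaf and seedling, 31 members were higher in the leaf (background 4.74%) and 40 in the seedling (7.46%), with 9 and 19 long members (3.86% and 6.82%). Between leaf and stem, 35 were higher in the leaf (4.84%) and 55 in the stem (7.47%), with 20 and 29 long members (3.93% and 6.77%). Between seedling and stem, 34 were higher in the seedling (5.05%) and 39 in the stem (5.17%), with 20 and 15 long members (4.4% and 4.23%), so the last pair changed its order without the mixed members. Across the 300 members the Spearman correlation was -0.30 between leaf and rhizophore and between -0.03 and 0.20 for the other 5 pairs. Over all 23000 loci it was 0.75 to 0.86. These correlations are across loci of the same libraries, and the members were chosen by the mean of the same values. For the next 300 loci, leaf and rhizophore gave -0.40, seedling and stem -0.37, leaf and stem -0.20, and rhizophore and stem -0.19, so a negative value was not particular to leaf and rhizophore.

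In length and in starts at the contig edge the members were near the other loci, but they more often held several deposited loci and were less often alone on a contig. Their median length was 1123.5 bp, beside 1178 bp over all loci of at least 400 bp, and ranged from 402 to 26344 bp. A start within the first 10 bases of the contig, where a transcript may be cut off, was found in 107 members (35.7%) and in 36.3% of all loci. Of the members, 179 (59.7%) were alone on their contig, beside 70.4% of all loci. More than 1 deposited locus in some library was merged in 140 members (46.7%) and in 30.02% of all loci. FPKM was summed over the deposited loci merged, so the choice of members itself favours several, and nothing is read from this share. Only contig 098042 held 2 members. They were not alike: the locus from 11311 to 13121 was at 2211 in the rhizophore and 24.3 in the leaf, and that from 10570 to 11179 was at 274 in the rhizophore and 691 in the leaf. Both are mixed members.

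At the edge of the list the mean FPKM fell by small steps. The last 2 members were contig 075951 from 610 to 2056, with a mean of 433, and contig 024653 from 29 to 710, also with 433. The first was highest in the rhizophore at 610.1 and the second in the leaf at 989. The loci just outside were contig 093452 from 1 to 871, with a mean of 433, and contig 044594 from 1 to 615, with 429. They were highest in the rhizophore at 808 and in the leaf at 1112. The loci on either side of the edge thus had nearly the same mean.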

How the data were processed

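RNA of 4 tissues was sequenced as paired-end libraries, 1 per tissue. After trimming read starts, the authors used TopHat to align each library to their draft contigs and Cufflinks to quantify it. The deposited FPKM values, 1 table per library, come with the bounds of an interval for every locus. The tables give no read counts, gene names or strands, so the fragments of a locus are known only through the intervals. The paper lists the number of paired-end reads of each library, which was not used here. Every locus had the status OK.

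Deposited loci with 1 bp or more in common were merged, and FPKM was summed per library, with 0 where none was listed. The bounds were combined in quadrature. Merged loci of at least 400 bp were ranked by mean FPKM and the first 300 taken. Calls used log2(FPKM + 1), which understates changes of low loci, and a threshold of 2. Python 3.11.15, pandas 2.3.3 and numpy 2.4.6 were used, and the steps were tested on simulated data. The loci named were the 10 of highest mean, the highest of each library, the 2 highest and 2 lowest against each library, the 3 steadiest, up to 3 with an unlisted library, those at the edge of the list and those sharing a contig. The same rule was applied to the long members after their values were seen, and contigs 105729 and 073271 were also named after their values were seen. The members and lists were chosen with earlier results of these data known. Copies of near-identical sequence, which can share reads, were not separated. Alternatives covered the choice of members, the length filter, the denominator, scaling, pseudocount and threshold.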

Additional observations from a re-analysis of the deposited data

Results flagged for a closer look

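Most of the summed FPKM of each library lay outside the loci described. Merged loci under 400 bp held 74.5% of it in the leaf, 84.9% in the seedling, 87.7% in the rhizophore and 69.5% in the stem. The comparisons above leave these loci out, and there are no control samples to set these shares against. The highest such locus alone held 1.29e+06 of 3.86e+06 in the leaf and 3.48e+06 of 6.68e+06 in the seedling. In the rhizophore it held 1.07e+06 of 7.98e+06, and in the stem 784957 of 3.39e+06. By implied fragments the short loci weighed less. The members held 16.8%, 20.1%, 15.2% and 17.4% of those in loci of at least 400 bp, for leaf, seedling, rhizophore and stem. Of those in all loci they held 15.8%, 19.0%, 13.3% and 16.7%. These shares rest on a rough guide. Contig 063554 in the leaf had 2330 implied fragments at an FPKM of 25767, and contig 070269 in the rhizophore 191283 at 18282. They are therefore not taken as shares of the reads.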

How the results depend on the processing

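With 1 library per tissue no replicate could be left out. No paired analysis was possible because there are no replicates to pair. All 124 values of named loci under another pseudocount or scaling kept their direction and side of the threshold. Pseudocounts of 0.1 and 5, equal sums and intervals that must not overlap moved no count by more than 1.5 times. The shares below are for leaf, seedling, rhizophore and stem, against 32.2%, 35.7%, 31.2% and 34.4% as reported. They were 8.21%, 5.38%, 3.83% and 10.5% of all merged loci, and 30.4%, 39.2%, 30.9% and 31.4% for loci of at least 1000 bp. Of the implied fragments, which are only a rough guide, they were 16.8%, 20.1%, 15.2% and 17.4%. Choosing members by the median gave 29.4%, 28.7%, 30.7% and 32.5%, by the mean log2 value 26.2%, 27.7%, 29.6% and 26.8%, and by the other 3 libraries 26.9%, 26.1%, 25.6% and 29.8%. With no length filter they were 67.0%, 81.6%, 83.3% and 62.2%, with at most 1 deposited locus per library 41.7%, 39.0%, 37.5% and 42.4%, and with median-of-ratios scaling 32.3%, 35.7%, 30.9% and 34.6%. In 2 alternatives chosen after seeing the data, they were 29.0%, 30.4%, 27.8% and 29.7% with only deposited loci of at least 400 bp, and 21.3%, 21.3%, 20.04% and 19.7% for the long members.

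The high calls of 10, 5, 15 and 16 became 23, 13, 28 and 31 at a log2 threshold of 1, and 6, 2, 6 and 9 at 3. They became 1, 1, 6 and 3 with the median, 2, 1, 7 and 5 with the mean log2 value, 4, 2, 8 and 10 with only deposited loci of at least 400 bp, and 2, 0, 5 and 5 for the long members. With loci of at least 1000 bp the seedling had 3 and the rhizophore 4, and with at most 1 locus per library the stem had 9. The low calls of 23, 5, 33 and 7 became 43, 20, 56 and 15 at a threshold of 1, and 16, 3, 10 and 3 at 3, where the leaf and not the rhizophore had the most. For the long members the leaf had 12, the seedling 0 and the stem 4, and with only deposited loci of at least 400 bp the seedling had 3 and the stem 4. With the mean log2 value the leaf had 14, with at least 1000 bp the seedling had 2, and with at most 1 locus per library the leaf had 13 and the stem 4. The 52 members within the top 300 of every library became 92 with at most 1 locus per library, and the 193 that varied at least 4-fold became 124 for the long members. The causes were not tested.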
